A study of Saccharomyces cerevisiae with 2 samples.

Results

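Transcript ratios of 33 yeast genes were read on 2 two-colour microarrays. The genes are 14 subunits of the 20S core proteasome, 18 subunits of the 19S regulatory particle, and RPN4 (YDL020C), the transcription factor gene of the proteasome. They were taken by a list of open reading frame (ORF) names from the 6207 ORF rows of the table, and no value entered that rule. Of the 33 genes, 31 had a value on both arrays. RPN4 and PRE3 (YJL001W), the catalytic core subunit for caspase-like cleavage, had no value on either array, so the regulator itself could not be read. All cells were a Saccharomyces cerevisiae sho1 mutant in the background of the haploid laboratory strain BY4741. SHO1 encodes a membrane sensor of the osmotic stress (HOG) kinase pathway. Treated cells had grown for 3 hours at 24 °C with 0.8 units per ml of Zymolyase, an enzyme mixture that digests cell wall glucan, and the untreated cells came from the other part of the divided culture. On array 1 the RNA of treated cells carried Cy3 and that of untreated cells Cy5, and on array 2 the dyes were exchanged. The mutation could not be checked, since SHO1 had no value on either array, and the comment on one channel of array 2 names a hog1 mutant where the other labels say sho1.

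The 26S proteasome degrades proteins tagged with ubiquitin. Its barrel-shaped core is built of alpha rings, which gate the channel, around beta rings, which hold the proteolytic sites. The regulatory particle caps the core. Its base has a ring of Rpt ATPases that unfolds substrates, and its lid removes the ubiquitin chain. In yeast, Rpn4 binds a shared element upstream of most subunit genes and is itself a short-lived substrate of the proteasome, which closes a feedback loop that raises subunit transcripts when degradation is impaired.

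The values are log2 ratios between the channels of an array, as deposited. Their direction is not stated, and the columns had a Pearson r of -0.012 and a Spearman rho of -0.26 across the 5311 ORFs with a value on both, which are not independent replicates. Read as they stand, both columns are likely treated over untreated, because the records describe the same comparison and known targets of wall damage lie above 0 on both. KDX1, which encodes a relative of the cell wall integrity kinase Slt2, had log2 ratios of 1.45 on array 1 and 1.27 on array 2. CRG1, CWP1 and PRM5 also passed the test as above 0 (adjusted p from 6.18e-06 to 0.00161 in limma), and SLT2 had a mean of 0.53 (limma adjusted p = 0.063). If the columns instead held Cy5 over Cy3, array 1 would have to be turned. The mean would then become the array 2 value minus the array 1 value, divided by 2. If they held Cy3 over Cy5, array 2 would have to be turned, which reverses the sign of that mean. The reading as deposited and that with array 1 turned are given below. The wall damage genes served to choose the first, so their direction is no finding here. Separate cultures for the 2 arrays are not recorded in their labels, so the spread behind each p-value may be technical. No spot intensities were used, and a change shared by all transcripts would not show in such ratios.

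No proteasome subunit passed the test in either reading. As deposited, 0 of the 31 measured subunits passed as above 0, where 0.772% of all ORFs did (limma, Benjamini-Hochberg adjusted p under 0.05). As below 0, 0 subunits passed, where 0% of all ORFs did. An unadjusted limma p under 0.05 was held by 0 of the 31 subunits and by 191 of the 5311 ORFs. With array 1 turned, again 0 subunits passed, where 0% of all ORFs did. In that reading, 4 of the 31 subunits and 499 of the 5311 ORFs had an unadjusted limma p under 0.05. The subunit means as deposited ran from -0.17 for SCL1 to 0.14 for RPN11, or 0.892-fold to 1.10-fold, with a median of -0.022 against -0.028 for all ORFs. The limma 95% intervals of all 31 means included 0, and their outermost bounds were -0.43 and 0.44, which is 0.740-fold and 1.36-fold. By size alone, 0 subunits had a mean of at least 1.2-fold with the same sign on both arrays, where 3.71% of ORFs did.

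Most subunits lay above 0 on array 1 and below 0 on array 2. On array 1, 20 of the 31 lay above 0 (64.5%), against 43.1% of all ORFs. The median was 0.066 against -0.029 for all ORFs. On array 2, 23 of the 31 lay below 0 (74.2%), against 56.0% of all ORFs. The median was -0.056 against -0.022 for all ORFs. In all, 18 of 31 subunits (58.1%) were above 0 on array 1 and below 0 on array 2, a pattern held by 29.2% of all ORFs. A further 6 (19.4%) had the opposite pattern, against 30.1% of all ORFs. Below 0 on both arrays were 5 (16.1%), against 26.8% of all ORFs, and above 0 on both were 2 (6.45%), against 13.97%. The median SD between the arrays was 0.097 for the subunits, against 0.12 for all ORFs. Dye orientation differs between the arrays in step with the labelled replicate, so a dye effect and a difference between the arrays' RNA cannot be told apart.

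**Figure D1:**
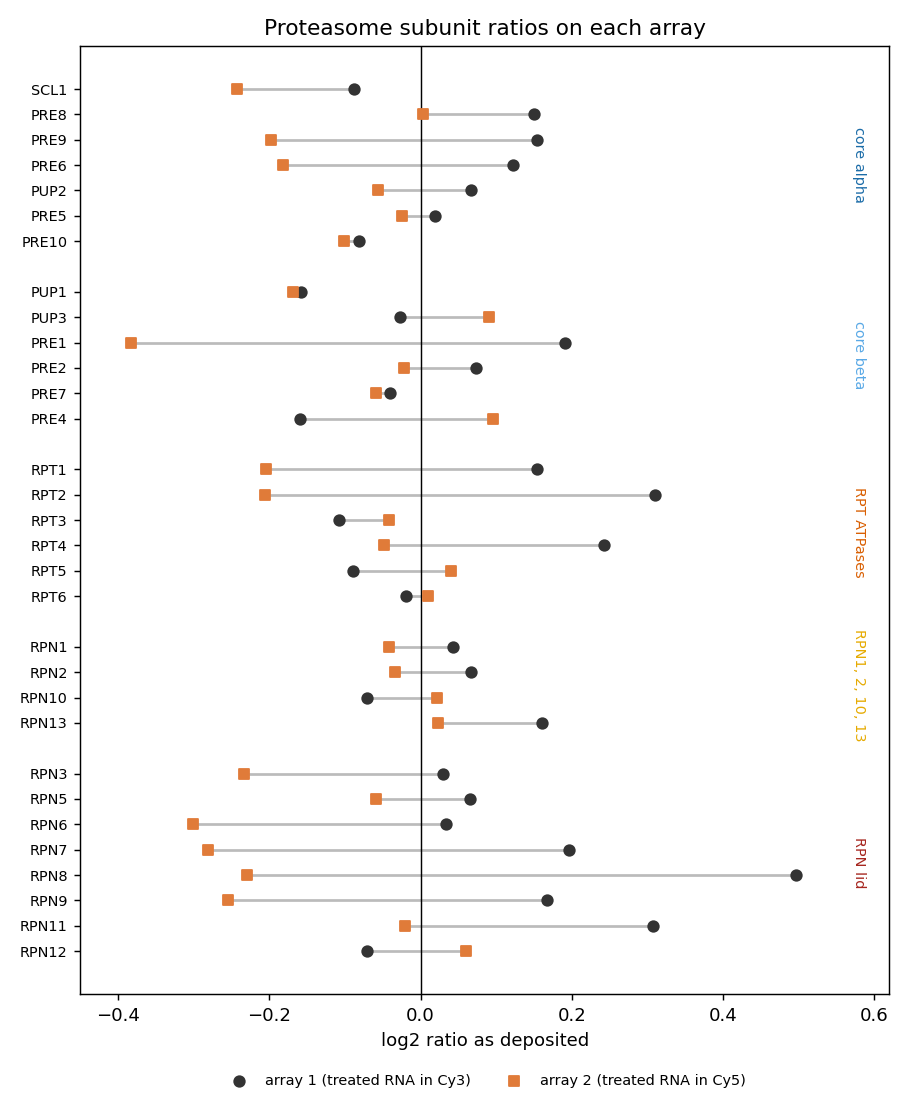
Log2 ratio as deposited (x axis) of each of the 31 measured proteasome subunits (rows, by class) on array 1 (dark circles) and array 2 (orange squares); a grey line joins the values of a subunit. Most circles lie right of 0 and most squares left of it, and the longest line is that of RPN8, at 0.50 and -0.23.

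The alpha subunits form the outer rings of the core, and all 7 were measured. Each had a higher value on array 1 than on array 2, by 0.020 to 0.35, where 48.5% of all ORFs did. SCL1 (YGL011C) had -0.088 on array 1 and -0.24 on array 2, and PRE10 (YOR362C) had -0.081 and -0.10, so these were the alpha subunits below 0 on both arrays. PRE8 (YML092C) had 0.15 and 0.0026 and was the alpha subunit above 0 on both. The widest gap was in PRE9 (YGR135W), the one core subunit gene that yeast can lose, with 0.15 and -0.20. PRE6 (YOL038W) had 0.12 and -0.18. PUP2 (YGR253C) had 0.066 and -0.056, and PRE5 (YMR314W) 0.019 and -0.025, values close to 0 on either array. The medians of the alpha class were 0.066 on array 1 and -0.10 on array 2.

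The beta subunits were less uniform, with 6 of 7 measured and medians of -0.034 on array 1 and -0.041 on array 2. Of the catalytic subunits, PUP1 (YOR157C), which carries the trypsin-like site, had -0.16 on array 1 and -0.17 on array 2. Those values were nearly equal, and its mean was -0.16 ± 0.0071 (SD, n = 2 arrays), the smallest SD of the 31 subunits as deposited, yet its 95% interval of -0.43 to 0.10 included 0. With array 1 turned its mean was -0.0050. PRE2 (YPR103W), which carries the chymotrypsin-like site, had 0.073 and -0.022. Among the noncatalytic subunits PRE1 (YER012W) stood out, with 0.19 on array 1 and -0.38 on array 2. That array 2 value was the lowest of any subunit, at percentile 2.51 of all ORFs, or 1.30-fold below an equal ratio. PRE7 (YBL041W) had -0.041 and -0.059. PUP3 (YER094C) had -0.028 and 0.090 and PRE4 (YFR050C) -0.16 and 0.095, so these ran the other way from most subunits.

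The Rpt ATPases, which unfold the substrate and thread it into the core, split evenly. RPT1 (YKL145W) had 0.15 on array 1 and -0.20 on array 2. RPT2 (YDL007W), whose product helps open the gate of the core, had 0.31 and -0.21, and RPT4 (YOR259C) had 0.24 and -0.048. These 3 genes were above 0 on array 1 and below 0 on array 2. The other 3 were not. RPT3 (YDR394W) had -0.11 and -0.042, RPT5 (YOR117W) -0.089 and 0.041, and RPT6 (YGL048C) -0.019 and 0.010. The subunits assemble into one ring, but their transcript ratios on array 1 spanned -0.11 to 0.31.

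Of the Rpn subunits of the base and the ubiquitin receptors, RPN13 had the value farthest from 0. RPN1 (YHR027C) and RPN2 (YIL075C), the large scaffold proteins of the base, had 0.042 and 0.067 on array 1 and -0.041 and -0.034 on array 2. RPN10 (YHR200W), a ubiquitin receptor, had -0.071 on array 1 and 0.021 on array 2. RPN13 (YLR421C), another receptor, had 0.16 and 0.023 and was above 0 on both arrays.

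In the columns as deposited, the lid had the widest gap between class medians, although PRE1 and RPT2 of other classes had wider gaps than every lid gene but RPN8. Setting the lid apart was a division made after the values were seen, though its membership is textbook knowledge. Of its 8 listed subunits 7 were above 0 on array 1 and below 0 on array 2. That pattern was held by 58.1% of all 31 subunits and 29.2% of all ORFs. The class medians of the lid were 0.12 and -0.23. RPN8 (YOR261C), the structural partner of the deubiquitinase Rpn11, had 0.50 on array 1 and -0.23 on array 2. The first value was 1.41-fold, at percentile 97.7 of all ORFs. Its array 1 value minus its array 2 value, 0.73, lay at percentile 98.1 of these signed differences over all ORFs. RPN11 (YFR004W), the deubiquitinase itself, had 0.31 and -0.021, and its mean of 0.14 ± 0.23 (SD, n = 2 arrays) was the highest of the subunits as deposited. RPN7 (YPR108W) had 0.20 and -0.28, and RPN9 (YDR427W) had 0.17 and -0.25. RPN6 (YDL097C), a clamp between regulatory particle and core, had 0.033 and -0.30, and RPN3 (YER021W) had 0.029 and -0.23. In both genes most of the gap came from array 2. RPN5 (YDL147W) had 0.066 and -0.059. RPN12 (YFR052W) was the exception, with -0.071 and 0.059.

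**Figure D2:**
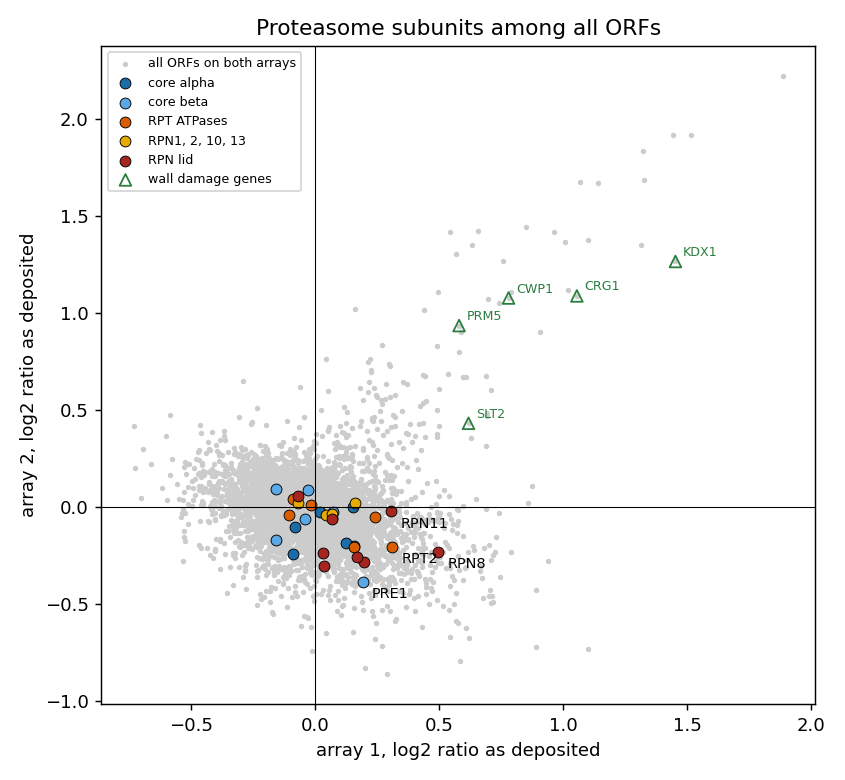
Log2 ratio on array 1 (x axis) against array 2 (y axis) for the 5311 ORFs with both values (grey), the 31 proteasome subunits (filled circles, coloured by class) and 5 genes of wall damage (open triangles). The wall damage genes lie high on both arrays, from 0.58 to 1.45 on array 1. Of the subunits, 18 lie at the lower right of 0, with RPN8 and PRE1 farthest out. Another 6 lie at the upper left, 5 at the lower left and 2 at the upper right.

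The share of subunits far above 0 on array 1, or far below 0 on array 2, was near that of all ORFs. At 1.2-fold or more above 0 on array 1 were RPN8, RPT2 and RPN11, 3 of 31 or 9.68%, against 8.38% of all ORFs. No subunit was that far below 0 on array 1, against 8.30% of all ORFs. On array 2, PRE1, RPN6 and RPN7 lay at 1.2-fold or more below 0, again 9.68%, against 7.93% of all ORFs, and no subunit lay as far above 0, against 4.35%. Across the 31 subunits the arrays had a Pearson r of -0.40 and a Spearman rho of -0.39, given as a description, since all points share the same pair of arrays. Without RPN8 the Pearson r was -0.36.

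With array 1 turned, the subunits lay mostly below 0, and with array 2 turned instead these signs would be reversed. With array 1 turned, 24 of 31 had a mean below 0, where 48.5% of all ORFs did. The median was -0.062 against 0.0059 for all ORFs. RPN8 had the lowest mean, -0.36 (95% interval -0.63 to -0.098; limma adjusted p = 0.487, n = 2 arrays). PRE1 had -0.29, RPT2 -0.26 and RPN7 -0.24, with limma adjusted p-values of 0.49 to 0.50. The intervals of these 4 subunits excluded 0 before adjustment over all ORFs, and those of the other 27 included it. Of all 5311 ORFs, 499 had an unadjusted limma p under 0.05 in this reading. The highest mean of the subunits was that of PRE4, at 0.13. Under this reading the bounds over all subunits were -0.63 and 0.34, or 0.647-fold and 1.26-fold.

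**Figure D3:**
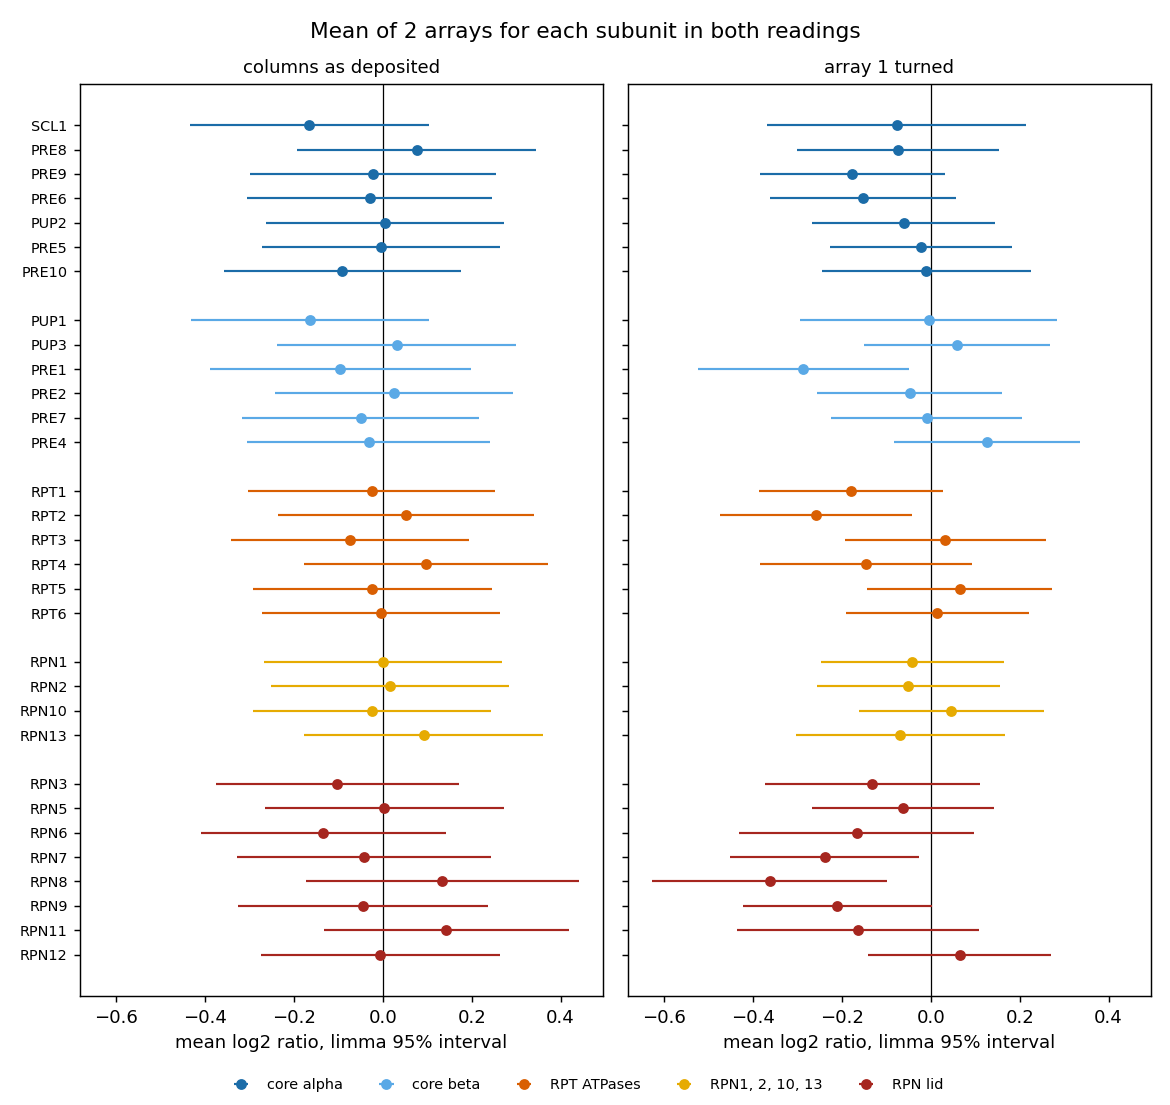
Mean log2 ratio of 2 arrays for each of the 31 subunits (points, coloured by class) with limma's 95% interval (bars), for the columns as deposited (left) and with array 1 turned (right). All intervals on the left include 0, and on the right those of RPN8, PRE1, RPT2 and RPN7 do not.

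As deposited, the core had slightly lower medians than the regulatory particle on both arrays, and the sign of this difference depended on the reading. The 13 measured core subunits had a median of 0.019 on array 1, against 0.066 for the 18 subunits of the regulatory particle, a difference of -0.048. On array 2 the core median was -0.059 and that of the regulatory particle -0.045, a difference of -0.014. The mean difference was -0.031 ± 0.023 (SD, n = 2 arrays; exact sign-flip permutation p = 0.5, two-sided, which is the smallest this test can give with 2 arrays). With array 1 turned it was 0.017. The medians of both classes were above 0 on array 1 and below 0 on array 2. Above 0 on array 1 and below 0 on array 2 were 6 of 13 core subunits and 12 of 18 regulatory particle subunits. That pattern was held by 29.2% of all ORFs. The opposite pattern was held by 2 of 13 core and 4 of 18 regulatory particle subunits, against 30.1% of all ORFs. These counts are a description with no test. Below 0 on both arrays, where 26.8% of all ORFs lay, were 4 of 13 core subunits and 1 of 18 regulatory particle subunits, RPT3. Without the lid, the 10 other regulatory particle subunits had medians of 0.055 and -0.037. Of these 10, 5 were above 0 on array 1 and below 0 on array 2. The measured core genes are short and alike in annotated length, at 597 to 867 bp, while those of the regulatory particle run from 471 to 2982 bp, and all measured ORFs with a known length have a median of 1254 bp. The longest subunit genes, RPN1 and RPN2, had ratios near 0 on both arrays.

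The assembly and partner genes measured on both arrays lay below 0 on array 1 as deposited, where most subunits lay above it. That difference was not tested. Of 14 listed assembly chaperones and partners, 9 had a value on both arrays and 0 passed the test. All 9 were below 0 on array 1, where 56.8% of all ORFs were, with a median of -0.15 against -0.029 for all ORFs. On array 2, 6 of them were below 0, where 56.0% of all ORFs were, with a median of -0.026 against -0.022. With array 1 turned, the median of the 9 means was 0.061, against 0.0059 for all ORFs. PBA1 (also POC1), a chaperone of alpha ring assembly, had -0.20 on array 1 and -0.10 on array 2. POC4, of another alpha ring chaperone pair, had -0.22 and -0.026, and RPN14, a chaperone of the base, had -0.17 and -0.048. UMP1, which guides beta subunits into the core and is degraded by it, had -0.044 and -0.034. BLM10, an alternative cap of the core, had 0.54 on array 1 and no value on array 2, and is named because its value was at percentile 98.3 of array 1. NAS2, ECM29, SEM1 and HUL5 had no value on either array.

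Genes of the ubiquitin system and of Rpn4 control showed no member past the test either. The 13 ubiquitin and Cdc48 genes had medians of 0.022 on array 1 and 0.0072 on array 2. UFD4, a ubiquitin ligase, had 0.095 and 0.26, with a mean of 0.18 as deposited (95% interval -0.090 to 0.45; limma adjusted p = 1.00, n = 2 arrays) and 0.084 with array 1 turned. UBA1, the ubiquitin-activating enzyme, had 0.022 and -0.24, and DDI1, a shuttle factor, had -0.20 and 0.013. Among the 7 measured regulators of Rpn4, PDR3, a drug resistance activator, had 0.19 and 0.082 and was above 0 on both arrays. HSF1, the heat shock factor, had -0.13 and -0.073. UBR1, a ligase of the N-degron pathway, had -0.18 and 0.0019. UBR2, the ligase that marks Rpn4 for degradation, had -0.26 on array 2 and no value on array 1.

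**Figure D4:**
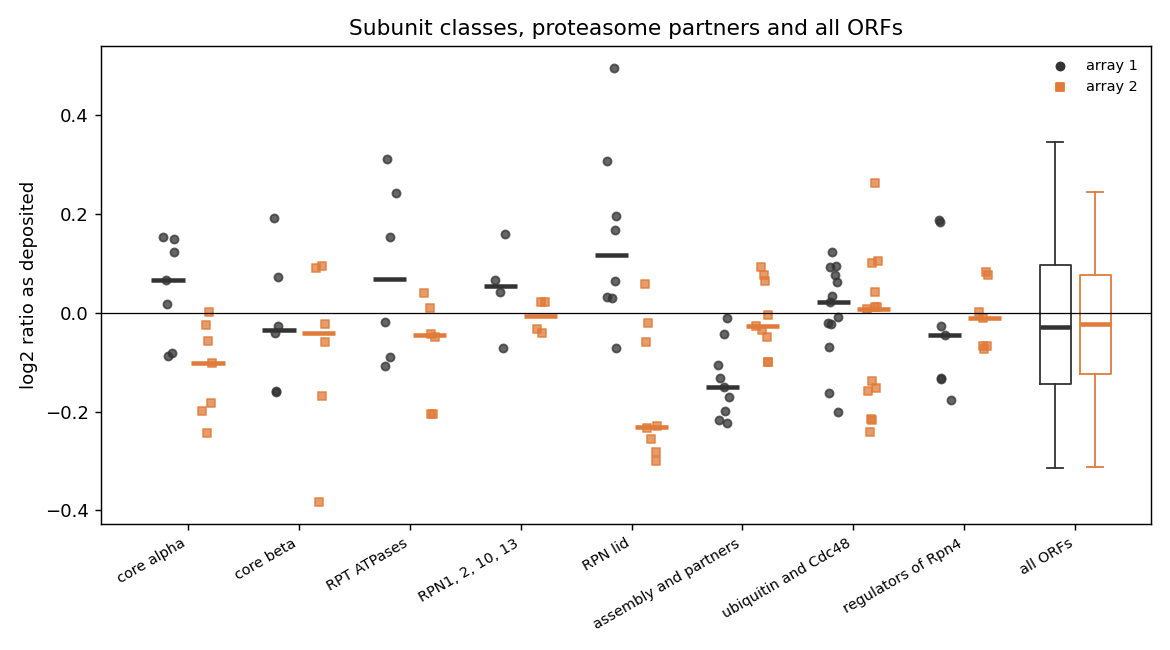
Log2 ratio as deposited (y axis) on array 1 (dark circles) and array 2 (orange squares) for the subunit classes and the partner lists, with class medians as bars and all 5311 ORFs as boxes (quartiles, whiskers at percentiles 5 and 95). The lid has the widest gap between medians, 0.12 on array 1 and -0.23 on array 2. All 9 assembly and partner genes measured on both arrays lie below 0 on array 1.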

How the data were processed

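RNA of treated and untreated cells was hybridised together on each of 2 arrays. The authors deposited a log2 ratio for each ORF on each array. No label names the log base, so it was read off the values: as powers of 2, 100% of them fell on steps of 0.0001 with a tolerance of 1% of a step. For the scanning, correction and normalization of spots, and for the numerator of the ratio, the steps are not given in the sources used. Of 6209 rows, 2 control rows were left out. Array 1 had 5552 ORF values, array 2 had 5347, and their medians were -0.033 and -0.022, so values were used uncentred. No intensities were used, so the number of arrays limits precision.

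For 5311 ORFs, limma 3.58.1 (R 4.3.3) compared the mean of both arrays with 0 (intercept, eBayes, two-sided), with Benjamini-Hochberg adjustment over all of them. Each ORF had 1 residual degree of freedom, and the prior estimated across ORFs had 23.5, or 3.55 with array 1 turned. No dye term was fitted, because it would use up the residual degree of freedom. Members and lists were chosen with earlier results of these data known. All measured subunits are named, and of each partner list the 3 genes with the largest absolute mean; UMP1, BLM10, UBR2 and genes without values are named beyond that rule. Of 5311 ORFs, 4999 had a length in the R64 annotation, used for names and lengths only. Promoter motifs were not analysed here. Alternatives were a turned array, centring, scaling, single arrays, ORFs with 1 value, robust variances, a filter on the absolute difference between arrays and other thresholds. Python 3.11.15, pandas 2.3.3, numpy 2.4.6 and matplotlib 3.10.9 were used for tables and plots.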

Additional observations from a re-analysis of the deposited data

How the results depend on the processing

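The count of subunits past the test was 0 under every alternative that gives such a count. Changes of the values or the fit were array 1 turned, centred arrays, scaled arrays, ORFs with 1 value and robust variances. A filter kept ORFs under the 90th percentile of the absolute difference between arrays, among them 28 of the 31 subunits. This filter did not require the same sign on both arrays. Changes of the rule, as deposited, were a threshold of 0.1, an unadjusted p under 0.05 and the 1.2-fold size rule. The lowest adjusted p of any subunit was 0.487, for RPN8 with array 1 turned. Single arrays give no test, since no residual degrees of freedom are left. The median over the subunits, -0.022 as deposited, was -0.056 to 0.066 when one array was left out, -0.062 with array 1 turned and 0.0057 with centred arrays. The core median minus that of the regulatory particle ran from -0.048 to -0.014 when one array was left out. With array 1 turned it was 0.017, the opposite sign of the -0.031 as deposited. Turning reverses the sign of the array 1 difference of -0.048, which is larger in size than the -0.014 on array 2. Scaling moved neither median by more than the spread between arrays. The inclusion of ORFs with 1 value could not move them, because no subunit had a value on only 1 array. Single subunits moved by more than the spread between arrays in 10 of 31 cases with array 1 turned and in 4 with centring. Centring shifts every mean by the same amount, so these 4 are the subunits with the smallest SD, PUP1, PRE7, PRE10 and RPT6. Turning shifts each mean by the size of its array 1 value. Neither count therefore measures how sensitive a subunit is to processing. No paired analysis was possible because each array already holds treated and untreated RNA and there is a single group of ratios. No depth or signal over background was used here, so limits from dim spots are unknown.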
